A study of Mus musculus with 12 samples.

Results

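The 9 libraries of mouse oligodendrocyte progenitor cells (OPCs) exposed to a quaternary ammonium compound were pooled and compared with the 3 vehicle libraries, which make up the whole set of 12. The treated libraries were chosen by their treatment label and hold 3 libraries each of cetylpyridinium chloride (CPC), C12-C14-Alkyl(ethylbenzyl)dimethylammonium chloride (AEBDAC) and methyltrioctylammonium chloride (MTOAC). The value of the class was the mean of the 3 compound means, so that each compound weighed the same, and the vehicle was dimethyl sulfoxide (DMSO). The cells of all 12 libraries were derived from pluripotent stem cells, were grown with noggin, NT3, cAMP and IGF-1, had attached for 1 h in a medium that permits differentiation, and were collected after 4 h of exposure. Doses were set by effect, at the IC75 (75% inhibition) of each compound, so they differ between compounds, and the labels hold no concentrations. The labels name neither the parental stem cell line nor separate cultures for the 3 libraries of a group, so the p-values below measure the spread between these libraries. The readout is poly(A) RNA sequencing in TPM, a transcript level scaled to length and library, which keeps no depth.

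Quaternary ammonium compounds are positively charged surfactants used as disinfectants and preservatives. OPCs are dividing cells that carry the transcription factors Olig1, Olig2 and Sox10 and the receptor Pdgfra, and that leave the cell cycle to become myelin-forming oligodendrocytes. In the integrated stress response, several kinases phosphorylate the initiation factor eIF2, general translation falls, and the transcription factor ATF4 is made and induces genes of amino acid supply together with regulators such as Chac1, Trib3 and Ddit3. Whether a response is shared by the compounds is the question that the pooled comparison addresses.

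The 27 listed genes of OPCs and the oligodendrocyte lineage were all found in the table, and their TPM summed to 2226 to 2851 in treated libraries and to 3146, 3550 and 3468 in vehicle libraries 1, 2 and 3. Of 12 microglial markers, 5 were at 0 in every library, among them Cx3cr1, Tyrobp and Trem2, and the summed level was at most 2.28 TPM in treated and 3.39 TPM in vehicle libraries. Vehicle library 1 stood apart. The 13 mitochondrially encoded genes together reached 86422 TPM there and 147539 to 183001 TPM elsewhere, and its correlation with other libraries across genes averaged 0.917, compared with 0.935 to 0.957 elsewhere. The median log2(TPM + 1) of the 12009 tested genes was 3.33 to 3.62 in treated libraries and 3.93, 3.60 and 3.65 in vehicle libraries 1, 2 and 3. The difference of the means was -0.21, with p = 0.0182 in a two-sided exact permutation test over the 220 ways to choose 3 of 12 libraries, where 0.00455 is the smallest p possible. The median gene therefore lay below 0 in the comparisons that follow, and calls lost without vehicle library 1 are given as such. In bulk RNA, fewer cells of a type and less RNA per cell cannot be told apart.

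Pooling the compounds gave a response in which 133 genes rose and 787 fell. These 920 genes were 7.66% of the 12009 tested, 1.11% higher and 6.55% lower, by limma at a Benjamini-Hochberg adjusted p under 0.05. An unadjusted p under 0.05 was seen for 3140 genes. The median fold change on the log2(TPM + 1) scale, which understates the change of low genes, was 0.78 for the genes that rose, -0.71 for those that fell and -0.18 for all tested genes. Changes of over 1 log2 were seen for 40 of the genes that rose and 139 of those that fell. All 9 treated libraries lay above all 3 vehicle libraries for 102 of the genes that rose and below them for 698 of those that fell, while over all tested genes such separation was seen above for 1.34%, below for 10.1% and in total for 11.4%.

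The preponderance of falls depended on the scaling and on single libraries. Of the called genes 85.5% were lower as deposited, but after quantile normalization 295 genes were higher (2.46%) and 303 lower (2.52%), so that 50.7% were lower, and after centring each library on its median 46.1% of 549 were lower. Without vehicle library 1, 168 genes were called, 45 higher and 123 lower (0.38% and 1.04% of those tested), of which 160 were among the 920. Without vehicle library 2 or 3 the count was 320 or 379, without CPC library 2 or 3 it was 464 or 479, without AEBDAC library 2 or 3 it was 514 or 462, and without MTOAC library 2 it was 610. Leaving out a whole compound gave 536 genes without CPC, 273 without AEBDAC and 77 without MTOAC. None of the 920 changed sign in any of these fits. They were called in these same libraries, with fold changes of at least 0.30 in size, so this was likely beforehand and is no separate support.

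**Figure D1:**
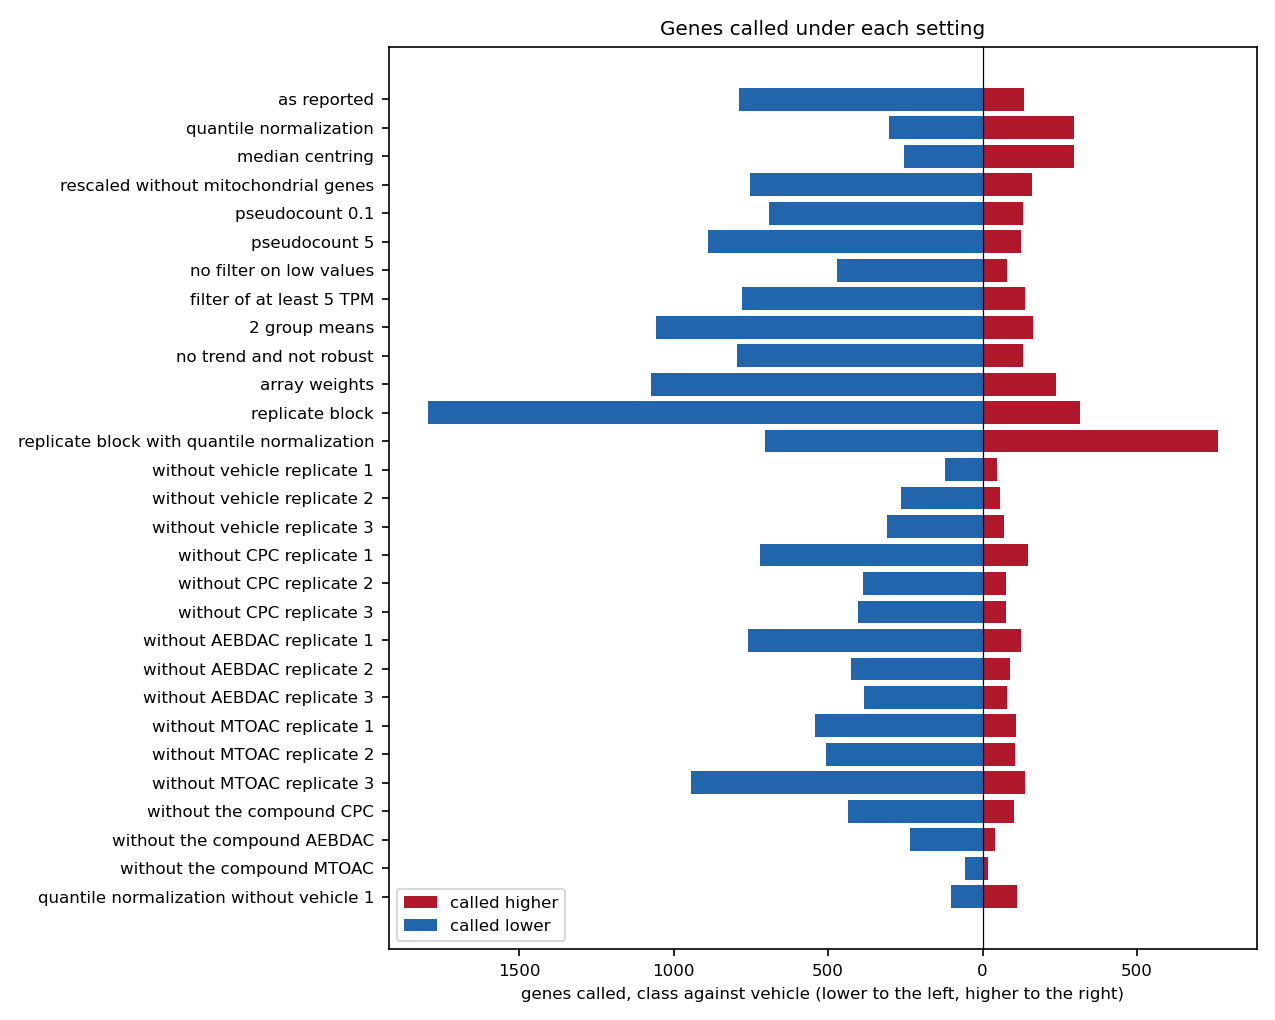
Genes called for the class against vehicle under each way of processing, with the number called lower drawn to the left and the number called higher to the right of 0. The bar as reported holds 787 lower and 133 higher genes, the bar without vehicle library 1 holds 123 and 45, and under quantile normalization both sides are about the same length.

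Effectors of the integrated stress response were the list with the highest median. Of 20 listed genes 16 were tested, 6 rose and none fell, and the median member stood 0.93 log2 above the median of all tested genes. Chac1, a glutathione-degrading enzyme (chromosome 2, 119351229 to 119354381, plus strand, GRCm38), ranged over the treated libraries from 33.0 TPM through a median of 47.1 to 60.7 TPM, against 3.05, 6.50 and 7.42 TPM in vehicle libraries 1, 2 and 3. Every treated library was thus far above every vehicle library, and the log2 fold change was 2.94 ± 0.21 (SE; limma, adjusted p = 0.000181). Trib3, a pseudokinase that restrains ATF4 signalling (chromosome 2, 152337422 to 152344032, minus strand), had a lowest, median and highest value of 14.1, 25.0 and 40.4 TPM in treated libraries, against 2.45, 3.67 and 5.08 TPM in vehicle. Its log2 fold change was 2.50 ± 0.23 (limma, adjusted p = 0.000495), and again the groups did not overlap.

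Atf4 itself, the transcription factor of the pathway, had 265, 381 and 445 TPM as the lowest, median and highest treated value, against 132, 176 and 220 TPM in vehicle libraries, a log2 fold change of 1.10 ± 0.16 (limma, adjusted p = 0.00805). The other 3 members that rose were named after their values were seen. Sesn2, an inhibitor of mTORC1 that ATF4 induces, rose by 0.83, Vldlr, a lipoprotein receptor, by 0.66, and Fgf21, a secreted stress hormone, by 1.16 log2. Fgf21 was scarce, with 0.699 to 3.86 TPM in treated libraries and 0, 0.0925 and 0.18 TPM in vehicle. Ddit3, which encodes the factor CHOP, did not pass the test: it had 8.04 to 21.5 TPM in treated libraries against 12.7, 8.25 and 4.49 TPM in vehicle, and the groups overlapped (limma, adjusted p = 0.284). Ddit3 overlaps Mars on the other strand, and how reads were divided between these genes was not tested. Without vehicle library 1, Chac1, Trib3 and Atf4 were called and Sesn2, Vldlr and Fgf21 were not (adjusted p = 0.0591, 0.147 and 0.115), which left 3 of 16; under quantile normalization 6 of 16 rose.

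**Figure D2:**
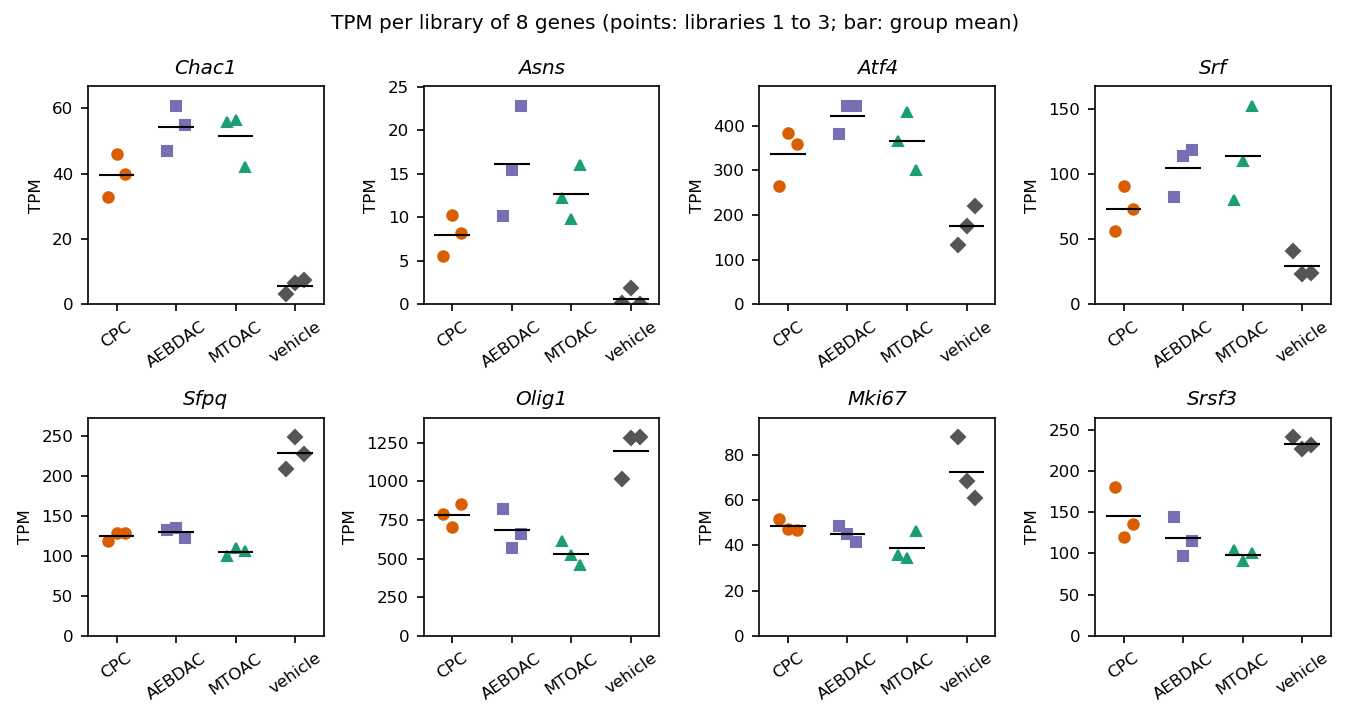
TPM of 8 genes in each library, by compound and vehicle, with points for libraries 1 to 3 and a bar for the group mean. In the upper row (Chac1, Asns, Atf4 and Srf) all 9 treated points lie above the vehicle points, and in the lower row (Sfpq, Olig1, Mki67 and Srsf3) all lie below them.

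Genes of amino acid supply, a known branch of ATF4 targets, rose in part. Asns, asparagine synthetase (chromosome 6, 7675169 to 7693254, minus strand), had the highest class fold change among the named genes that passed the test: its lowest, median and highest treated values were 5.49, 10.2 and 22.8 TPM, against 0.142, 1.88 and 0 TPM in vehicle libraries 1, 2 and 3 (log2 fold change 3.06 ± 0.34; limma, adjusted p = 0.00207). It was therefore scarce in vehicle and above it in every treated library. Mthfd2, the mitochondrial enzyme of one-carbon metabolism, had 94.2, 152 and 201 TPM in treated libraries, against 54.1, 46.5 and 53.2 TPM in vehicle, and rose by 1.49 ± 0.14 log2 (limma, adjusted p = 0.000495). They were the 2 of 19 tested synthesis enzymes that rose.

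Among 15 tested amino acid transporters 3 rose and none fell, and they were the same 3 when vehicle library 1 was left out and under quantile normalization. Slc7a5 and Slc3a2 encode the chains of the LAT1 exchanger for large neutral amino acids. Slc7a5 had 165, 254 and 354 TPM as the lowest, median and highest treated values, against 117, 109 and 132 TPM in vehicle, and Slc3a2 had 184, 283 and 386 TPM, against 140, 140 and 147 TPM. Both were above vehicle in every treated library, with log2 fold changes of 1.08 ± 0.15 and 1.02 ± 0.15 (limma, adjusted p = 0.00571 and 0.00806). Slc1a4, a carrier of alanine, serine and cysteine, rose by 0.63 ± 0.10. Of 20 cytosolic aminoacyl-tRNA synthetases 3 rose, Sars by 1.51, Cars by 0.66 and Yars by 0.52 log2, and none fell. With quantile normalization 7 synthetases rose, and without vehicle library 1 the count was 0, as the adjusted p of Sars became 0.132, that of Cars 0.0582 and that of Yars 0.064. Eif4ebp1, the repressor of cap-dependent translation and a target of ATF4, was the single riser among 25 genes of translation initiation and eIF2 kinases. It had 96.0, 110 and 187 TPM in treated libraries, against 69.9, 50.5 and 58.9 TPM in vehicle, with no overlap (log2 fold change 0.98 ± 0.16; limma, adjusted p = 0.0101).

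The composite element bound by C/EBP and ATF factors, searched as TGATGNAA on both strands, was found in a larger share of the promoters of the genes that rose than of all tested genes. RefSeq promoters, 250 bases before to 50 after a start, were matched for 109 of the 133 genes that rose, 597 of the 787 that fell and 9062 of those tested, and a gene can have several. The element was present in 13 of 144 windows (9.03%) of the genes that rose, in 2.59% of those that fell, in 2.08% of those of all tested genes and in 3.97% of all windows in the table. The other motifs searched gave shares of 4.17% for genes that rose against 3.07% for tested genes (TGACGTCA, the cAMP response element), 0% against 0.846% (AAAGGTCA, the NR4A element), 4.17% against 5.66% (GAANNTTC, a pair of heat shock units) and 15.3% against 14% (TGACNNNGC, the antioxidant element core). These are descriptions of letters in a window and say nothing of binding. The 13 windows hold 12 distinct elements, as the Plekhh3 windows overlap and share theirs. The genes that rose and held the element were Arl14ep, Asns, Chac1, Fgf21, Herpud1, Nrip1, Pck2, Plekhh3, Slc1a4, Trib3, Vldlr and Yars. In the Asns window the match overlaps a match of the heat shock motif.

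For 4 of these genes the stretch around the element is shown, since the element lies ahead of the gene in both RefSeq and GENCODE. The stretches run 5′ to 3′ on the strand of the gene (GRCm38.p6, from RefSeq), and capitals mark the element, here in its reverse complement. They are chr2:119351013-119351092 on the plus strand for Chac1, chr8:94386281-94386360 on the plus strand for Herpud1, chr14:55540127-55540206 on the plus strand for Pck2 and chr7:45615586-45615665 on the minus strand for Fgf21.
Chac1: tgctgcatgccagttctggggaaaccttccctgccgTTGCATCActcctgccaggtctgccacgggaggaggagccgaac
Herpud1: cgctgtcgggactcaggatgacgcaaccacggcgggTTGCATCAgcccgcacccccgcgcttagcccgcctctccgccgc
Pck2: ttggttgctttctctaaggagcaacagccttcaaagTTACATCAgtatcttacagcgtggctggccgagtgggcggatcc
Fgf21: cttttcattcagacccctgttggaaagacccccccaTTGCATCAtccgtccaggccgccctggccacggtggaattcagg
The first capital lies at -193 from the RefSeq start in Chac1, -112 in Herpud1, -103 in Pck2 and -139 in Fgf21. Herpud1, a component of endoplasmic reticulum-associated degradation, had 28.4, 41.3 and 53.9 TPM as the lowest, median and highest treated values, against 23.9, 16.8 and 18.6 TPM in vehicle (log2 fold change 1.06 ± 0.14; limma, adjusted p = 0.00508). Pck2, the mitochondrial phosphoenolpyruvate carboxykinase, had 34.1 to 71.2 TPM in treated libraries, against 23.7, 23.7 and 36.7 TPM in vehicle, with overlap. Its log2 fold change was 0.82 ± 0.19 (limma, adjusted p = 0.0316, and 0.137 without vehicle library 1). Of the others named only for this element, Arl14ep rose by 0.97, Plekhh3 by 0.74 and Nrip1, a nuclear receptor corepressor, by 0.62 log2. Arl14ep was called whichever library was left out, while Plekhh3 and Nrip1 were not called without vehicle library 1 (adjusted p = 0.0955 and 0.093), and Nrip1 was called in 3 of the 12 fits without 1 library.

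Immediate early genes, which cells switch on within minutes to hours of a stimulus, stood 0.77 log2 above the median gene. Of 21 tested 4 rose and 1 fell; without vehicle library 1 it was 3 and 0. Nr4a1, an orphan nuclear receptor (chromosome 15, 101254269 to 101274795, plus strand), had 29.1, 58.4 and 67.7 TPM as the lowest, median and highest treated values, against 12.3, 17.1 and 15.6 TPM in vehicle (log2 fold change 1.76 ± 0.14; limma, adjusted p = 0.00033). Npas4, a transcription factor known for its induction by neuronal activity, had 3.17, 7.0 and 11.1 TPM, against 0.581, 0.844 and 1.0 TPM in vehicle (2.16 ± 0.21; adjusted p = 0.000996). Both separated the treated from the vehicle libraries. Fos, a subunit of AP-1, rose by 1.51 ± 0.25 and Junb, another AP-1 subunit, by 0.92 ± 0.22, though Junb was not called without vehicle library 1 (adjusted p = 0.133) and overlaps Prdx2 on the other strand. Btg2, an antiproliferative gene that is also a p53 target, went the other way, with 23.6, 43.0 and 94.7 TPM in treated libraries against 150, 115 and 132 TPM in vehicle (log2 fold change -1.64 ± 0.31; limma, adjusted p = 0.0143, and 0.0672 without vehicle library 1).

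Srf, the serum response factor that acts on many early genes (chromosome 17, 46548329 to 46556175, minus strand), was among the 8 highest fold changes of called genes with at least 5 TPM and no overlap between groups. Its lowest, median and highest treated values were 56.5, 90.9 and 152 TPM, against 41.0, 23.3 and 24.1 TPM in vehicle, without overlap (log2 fold change 1.69 ± 0.23; limma, adjusted p = 0.00508). Pafah1b1, the LIS1 regulator of dynein, had 15.4, 27.8 and 41.4 TPM, against 5.93, 11.6 and 3.15 TPM in vehicle, and rose by 2.06 ± 0.32 (adjusted p = 0.00847). Of 17 tested genes of ERK feedback 2 rose, the phosphatase Dusp8 by 1.22 ± 0.24 and the signalling inhibitor Spry2 by 1.58 ± 0.39, and the median member stood 0.73 above the median gene. Neither was called without vehicle library 1 (adjusted p = 0.0537 and 0.153). The inflammatory list had 9 tested members, of which Nfkbiz, an NF-kB regulator, rose by 0.72 (adjusted p = 0.177 without vehicle library 1).

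Other stress programmes showed members moving in both directions. Of 21 heat shock genes 2 rose and 2 fell, and the median member lay at -0.06 relative to all tested genes. Hspa1a, the inducible HSP70, had 3.14, 13.6 and 34.5 TPM in treated libraries, against 3.52, 1.86 and 2.92 TPM in vehicle (log2 fold change 1.97 ± 0.31; limma, adjusted p = 0.00911). The lowest treated value was below the highest vehicle value, so the groups overlapped. Its near-identical neighbour Hspa1b rose by 1.54 ± 0.28, but was not called without vehicle library 1 (adjusted p = 0.0672), and reads of the pair may have been split between them. Dnaja1, an HSP40 co-chaperone that overlaps Smu1 on the other strand, had 171 to 210 TPM in treated libraries against 290, 250 and 278 TPM in vehicle and fell by 0.53 ± 0.08 log2. The co-chaperone Stip1 fell by 0.37, with an adjusted p of 0.0558 without vehicle library 1.

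Of 20 genes of endoplasmic reticulum stress, Herpud1 rose and the ubiquitin ligase Syvn1, which overlaps Mrpl49 on the other strand, fell by 0.55 log2 (adjusted p = 0.0859 without vehicle library 1). Among 21 NRF2 and glutathione genes, Hmox1, heme oxygenase, had 59.3, 79.5 and 96.4 TPM as the lowest, median and highest treated values, against 38.5, 46.3 and 55.7 TPM in vehicle. It rose by 0.78 ± 0.14 without overlap (limma, adjusted p = 0.0136, and 0.0639 without vehicle library 1). Pgd, an enzyme of the pentose phosphate pathway, fell by 0.47 (adjusted p = 0.17 without vehicle library 1). None of 31 lysosome and autophagy genes, 20 glycolysis and hypoxia genes and 13 mitochondrially encoded genes was called in limma. For mt-Nd3, a mitochondrial subunit of complex I, treated libraries held 8716 to 11683 TPM and vehicle libraries 2 and 3 held 12747 and 13260 TPM, while vehicle library 1 had it at 0.

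**Figure D3:**
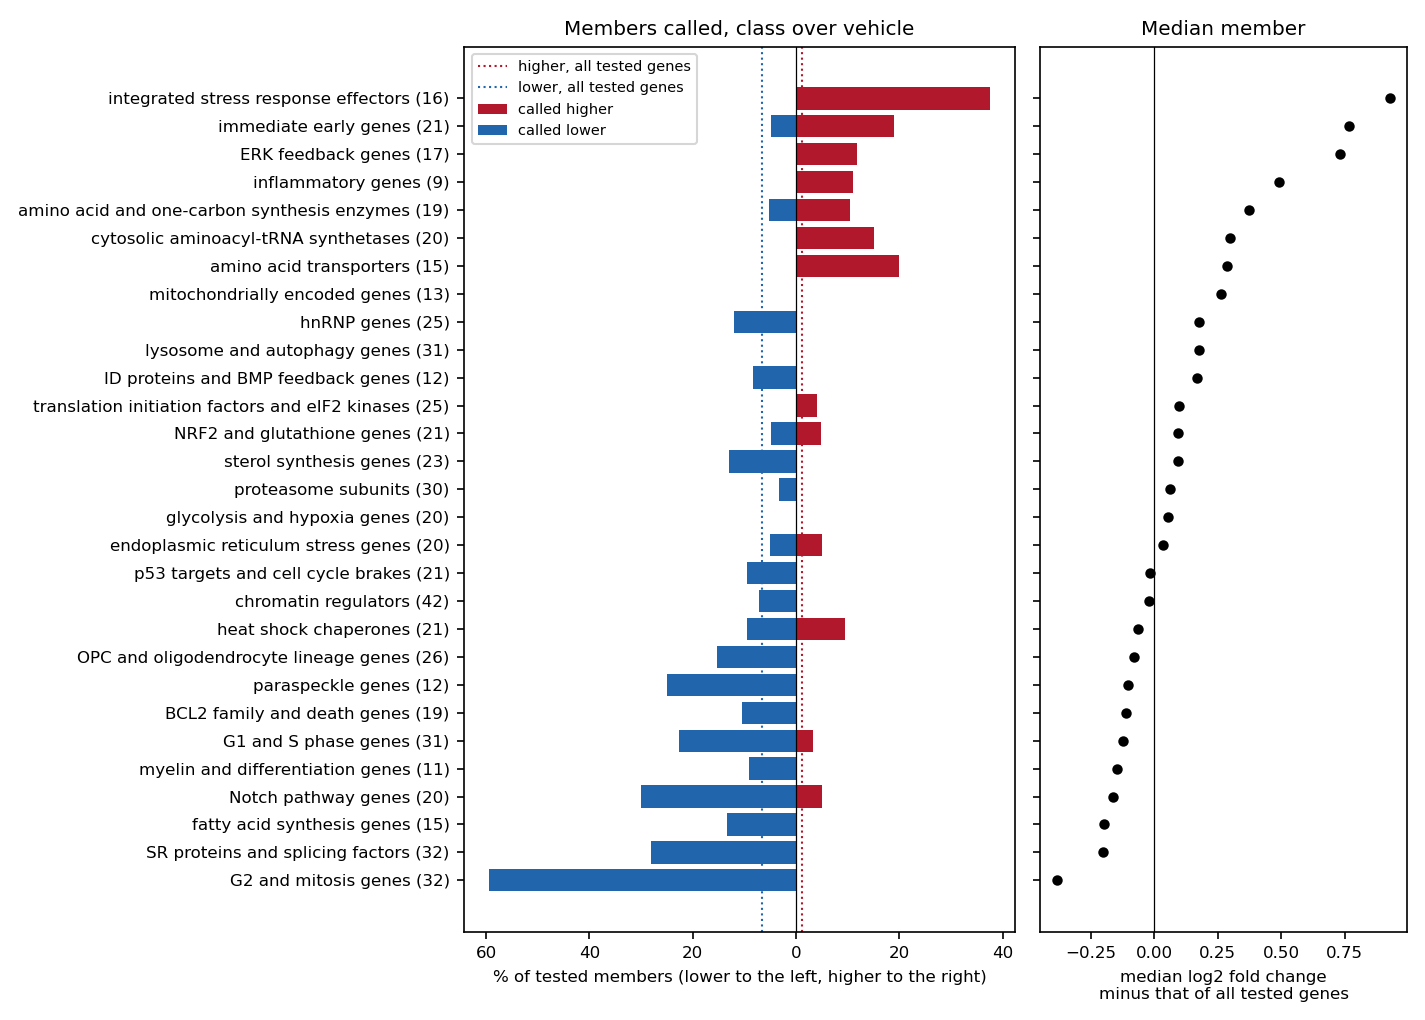
Left, the share of tested members of each gene list called higher (right of 0) or lower (left of 0) for the class, with dotted lines at 1.11% and 6.55% for all tested genes and the number tested in parentheses. Right, the median member's log2 fold change minus that of all tested genes, which runs from 0.93 for integrated stress response effectors to -0.38 for G2 and mitosis genes.

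On the falling side, genes of G2 and mitosis formed the list with the lowest median, -0.38 log2 relative to all tested genes. Of 32 members 19 fell and none rose, beside 6.55% lower over all tested genes. Aurka, the centrosomal mitotic kinase, had 37.8, 41.9 and 50.3 TPM as the lowest, median and highest treated values, against 88.0, 73.4 and 65.4 TPM in vehicle (log2 fold change -0.79 ± 0.12; limma, adjusted p = 0.00806). Aurkb, the kinase of the chromosomal passenger complex, had 34.8 to 45.7 TPM, against 66.8, 65.0 and 57.1 TPM, and fell by 0.60 ± 0.09. Plk1, another mitotic kinase, had 40.8, 60.5 and 73.9 TPM, against 83.8, 101 and 103 TPM, and fell by 0.70 ± 0.11. For each of these kinases the treated libraries lay below vehicle without overlap. Mki67, the proliferation antigen, had 34.6 to 51.7 TPM against 87.7, 68.3 and 60.9 TPM in vehicle and fell by 0.69 ± 0.13. Cdk1 and Ccnf, named after their values were seen, fell by 0.36 and 1.14. The other members that fell include Ccna2, Cdc25c, Bub1b, Kif11, Kif20a, Kif23, Cenpa, Cenpf, Tpx2, Prc1 and Ect2. Without vehicle library 1 the count was 5 of 32, as Mki67 and Cdk1 missed the threshold (adjusted p = 0.0582 and 0.0755), and under quantile normalization it was 12.

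Of 31 genes of G1 and S phase 7 fell and 1 rose, with a median of -0.12 relative to all tested genes, and under quantile normalization 2 fell and 1 rose. Ccne1, cyclin E1, had 7.17 to 13.1 TPM in treated libraries, against 25.4, 21.2 and 20.8 TPM in vehicle, and fell by 1.11 ± 0.17 (limma, adjusted p = 0.00806). Cyclin E1 was the one member called lower when vehicle library 1 was left out. Mcm7, a subunit of the replicative helicase that overlaps Ap4m1 and Cops6 on the other strand, had 7.27, 11 and 18.2 TPM, against 53.9, 30.2 and 19.7 TPM in vehicle (-1.40 ± 0.31; adjusted p = 0.0243, and 0.118 without vehicle library 1). Its vehicle values spread widely, and its treated values lay below all of them. E2f2, Cdc6, Mcm5, Gins1 and Cdc25a also fell, by 0.31 to 0.68 log2, and had adjusted p values of 0.113 to 0.187 without vehicle library 1. E2f8, an atypical repressor of the E2F family, rose by 0.97 (adjusted p = 0.111 without vehicle library 1). Among 21 p53 targets and cell cycle brakes none rose, and Btg2 and the CDK inhibitor Cdkn2c, which fell by 0.65, were lower. Of 19 BCL2 family and death genes, the pro-apoptotic Bcl2l11 fell by 0.93 and Diablo by 0.45. Cdkn2c, Bcl2l11 and Diablo were not called without vehicle library 1 (adjusted p = 0.0861, 0.146 and 0.158).

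Some of the factors that splice and package RNA fell. Of 32 SR proteins and splicing factors 9 fell and none rose, with a median of -0.20 relative to all tested genes; without vehicle library 1 it was 6, and under quantile normalization 5 fell and 1 rose. Srsf3, an SR protein, had 90.3, 115 and 181 TPM as the lowest, median and highest treated values, against 241, 227 and 231 TPM in vehicle (log2 fold change -0.97 ± 0.14; limma, adjusted p = 0.00571). Srsf6 had 56.2, 68.6 and 81.6 TPM, against 110, 111 and 111 TPM, and fell by 0.69 ± 0.11. Ddx5, an RNA helicase, had 95.3, 120 and 135 TPM, against 193, 182 and 169 TPM, and fell by 0.64 ± 0.09. All 3 were below vehicle in every treated library. The remaining members called lower were Srsf7, Tra2a, Tra2b, Luc7l3, Snrnp70 and Prpf4b.

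Sfpq, a core protein of nuclear paraspeckles (chromosome 4, 127021324 to 127037013, plus strand), had the smallest adjusted p among the genes named here that fell. Its lowest, median and highest treated values were 99.5, 122 and 134 TPM, against 209, 248 and 227 TPM in vehicle (log2 fold change -0.92 ± 0.08; limma, adjusted p = 0.000446). The treated range was narrow and well below vehicle. Rbm14 fell by 0.84 ± 0.11 and Tardbp, which encodes TDP-43 and overlaps Masp2 on the other strand, by 0.55 ± 0.09, and these 3 of 12 tested paraspeckle genes were called lower as reported, under quantile normalization and without vehicle library 1. Of 25 hnRNP genes 3 fell, Hnrnpu by 0.48, Hnrnph1 by 0.50 and Hnrnpul2 by 0.46, while the median of the list was 0.18 above that of all tested genes. Hnrnpu was called without vehicle library 1, and Hnrnph1 and Hnrnpul2 were not (adjusted p = 0.184 and 0.0582). Of 42 chromatin regulators 3 fell, a share near the 6.55% of all tested genes. The remodellers Chd4, Chd7 and Smarca4 were lower by 0.72, 0.48 and 0.30, of which Chd7 and Smarca4 were not called without vehicle library 1 (adjusted p = 0.182 and 0.125).

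The lowest fold changes among named genes were spread over several functions. Rbm12, an RNA-binding protein (chromosome 2, 156091958 to 156111978, minus strand), had 0.70, 2.44 and 3.55 TPM as the lowest, median and highest treated values, against 14, 13.2 and 11.9 TPM in vehicle (log2 fold change -2.07 ± 0.26; limma, adjusted p = 0.00354). It shares exons and strand with Cpne1, a calcium-dependent lipid-binding protein, which had 45.1 to 66.5 TPM in treated libraries against 24.9, 29.9 and 33.5 TPM in vehicle and rose by 0.95 ± 0.12. Neither pair of groups overlapped, and how reads were divided between the overlapping genes was not tested. Txnip, an inhibitor of thioredoxin, had 0, 0.588 and 2.11 TPM, against 9.51, 2.73 and 3.30 TPM in vehicle (-1.73 ± 0.41; adjusted p = 0.0311), and vehicle library 1 was high here (adjusted p = 0.153 without it). Armc10, a mitochondrial protein, had 0.872, 1.28 and 2.79 TPM, against 6.98, 6.07 and 6.31 TPM, and fell by 1.64 ± 0.23. Upf3b, a factor of nonsense-mediated decay, fell by 1.46 ± 0.25, and Rfx5, a regulator of MHC class II genes, by 1.51 ± 0.27. Snn, which overlaps Litaf and Txndc11 on the other strand, fell by 1.45 ± 0.23 and Leng8 by 1.53 ± 0.40. Rfx5 and Leng8 were not called without vehicle library 1 (adjusted p = 0.0641 and 0.155). Hexim1, an inhibitor of the elongation factor P-TEFb singled out after its values were seen, had 12.8 to 23.5 TPM against 43.3, 35.2 and 42.2 TPM in vehicle and fell by 1.19 ± 0.15.

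Of 26 tested genes of OPCs and the oligodendrocyte lineage 4 fell and none rose, with a median of -0.08 relative to all tested genes. Olig1 (chromosome 16, 91269772 to 91271933, plus strand) had 456, 656 and 855 TPM as the lowest, median and highest treated values, against 1016, 1282 and 1284 TPM in vehicle (log2 fold change -0.86 ± 0.13; limma, adjusted p = 0.00806). Omg, a myelin glycoprotein, had 8.98, 13.0 and 18.7 TPM, against 32.6, 33.0 and 29.5 TPM, and fell by 1.21 ± 0.13 (adjusted p = 0.00185). Both were below vehicle in every treated library, and they were the 2 members called without vehicle library 1. Gpr17, the receptor of committed precursors, had 10.5, 22.0 and 40.7 TPM, against 62.4, 50.7 and 63.8 TPM, and fell by 1.43 ± 0.25. It overlaps Lims2 on the other strand, and its adjusted p was 0.0569 without vehicle library 1. Pdgfra, the growth factor receptor of OPCs, had 11.5, 17.9 and 28.8 TPM, against 29.3, 35.6 and 29.3 TPM, and fell by 0.83 ± 0.23 (adjusted p = 0.0488, and 0.132 without vehicle library 1).

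Olig2 had 263 to 431 TPM in treated libraries, against 351, 537 and 488 TPM in vehicle, and Sox10 had 7.15 to 48.6 TPM, against 45.1, 19.6 and 61.0 TPM. Both overlapped between groups and did not pass (limma, adjusted p = 0.249 and 0.435). Sox10 was lowest in library 2 of every group. With the replicate number as a block in the limma fit, Sox10 passed (adjusted p = 0.0136) and Olig2 did not (0.168). The labels do not say what that number marks. Of 11 myelin and differentiation genes Cnp alone was called, lower by 0.56 log2 (adjusted p = 0.0675 without vehicle library 1), and it overlaps Dnajc7 on the other strand. Mbp stood at 0.676 to 4.64 TPM in treated and 5.43, 0.899 and 1.96 TPM in vehicle libraries. The 14 neuron markers summed to 289 to 423 TPM in treated libraries, against 475, 501 and 452 TPM in vehicle, without overlap. Map2 alone made up most of the vehicle sums, with 416, 431 and 388 TPM in vehicle libraries 1, 2 and 3. Map2 and Dcx were called lower, by 0.52 and 0.71, but not without vehicle library 1 (limma, adjusted p = 0.0608 and 0.155). Of 10 tested neuron markers 3 had positive and 7 negative fold changes, with a median 0.08 above that of all tested genes. Astrocyte markers summed to 260 to 316 TPM in treated and to 350, 269 and 313 TPM in vehicle libraries, and none of 8 tested was called. The part of other cell types in the lineage result was not tested.

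Notch pathway genes, which hold precursors back from differentiation in this lineage, included 6 that fell and 1 that rose among 20 tested, with a median of -0.16 relative to all tested genes. Dll1, a Notch ligand (chromosome 17, 15367354 to 15376872, minus strand), had 22.3, 29.7 and 38.0 TPM as the lowest, median and highest treated values, against 65.6, 58.8 and 58.7 TPM in vehicle (log2 fold change -1.06 ± 0.10; limma, adjusted p = 0.000495). Jag1, another Notch ligand, moved the opposite way, with 20.4, 26.2 and 34.7 TPM, against 11.7, 14.9 and 13.0 TPM, and rose by 0.95 ± 0.15 (adjusted p = 0.00918). Neither ligand overlapped between the groups, and both were called without vehicle library 1. Under quantile normalization 3 members fell and 1 rose. The target Hes5 fell by 1.38, Nrarp, a feedback inhibitor, by 1.98, Hey1 by 0.52 and the glycosyltransferases Lfng and Rfng by 0.72 and 0.50, and none of these 5 was called without vehicle library 1 (adjusted p = 0.0622, 0.0759, 0.16, 0.0613 and 0.123). Id3, an inhibitor of differentiation factors, had 54.7, 68.4 and 102 TPM, against 119, 128 and 207 TPM in vehicle, and fell by 1.02 ± 0.21 (adjusted p = 0.0189, and 0.0729 without vehicle library 3).

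In lipid synthesis, 3 of 23 sterol genes and 2 of 15 fatty acid genes fell and none rose. Elovl6, a fatty acid elongase, had 35.2, 45.6 and 47.4 TPM as the lowest, median and highest treated values, against 82.6, 66.8 and 63.3 TPM in vehicle, without overlap (log2 fold change -0.68 ± 0.11; limma, adjusted p = 0.00953). Fasn, fatty acid synthase, fell by 0.50, with overlapping groups and an adjusted p of 0.152 without vehicle library 1. Of the sterol enzymes, Fdps fell by 0.92 and Mvk by 0.63 log2, and both were called without vehicle library 1 but not without vehicle library 2 (adjusted p = 0.0507 and 0.0699) or 3 (0.0624 and 0.058). The median of the sterol list was 0.09 above that of all tested genes. Under quantile normalization 0 sterol genes and 1 fatty acid gene were called. Hmgcs1, an early enzyme of the sterol pathway, had 571 to 848 TPM in treated libraries and 1033, 789 and 730 TPM in vehicle, with overlap (adjusted p = 0.231). Psmd7, lower by 0.41 (adjusted p = 0.135 without vehicle library 1), was the single gene called among 30 proteasome subunits.

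Pooling called genes that the tests of single compounds did not. Against the same 3 vehicle libraries, 8 genes (0.0666%) were called for CPC, 153 (1.27%) for AEBDAC and 785 (6.54%) for MTOAC. Of the 920 class genes 251 (2.09% of tested) were called for no compound alone, 40 of them higher and 211 lower, while 525 were called for 1 compound, 137 for 2 and 7 for all 3. A further 126 genes were called for a compound but not for the class. Most calls for a single compound came from MTOAC. With MTOAC left out, 77 genes were called for the class, 76 of them among the 920. As the contrasts share the vehicle libraries, these counts describe the tests and are no independent support. The median fold changes of the 40 genes were 0.56 with CPC, 0.69 with AEBDAC and 0.72 with MTOAC, and those of the 211 genes were -0.63, -0.72 and -0.73. Their adjusted p lay close to the threshold, with a median of 0.0396 and a lowest value of 0.0171.

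Among the 40 were Sars, seryl-tRNA synthetase, with 10.8, 17.7 and 27.7 TPM as the lowest, median and highest treated values, against 3.15, 5.05 and 9.81 TPM in vehicle, and Cops8, a subunit of the COP9 signalosome, with 8.11 to 16.9 TPM against 4.93, 6.61 and 5.23 TPM. Cpeb4, a regulator of cytoplasmic polyadenylation, rose by 0.94 ± 0.22, Rrp1b, a nucleolar protein that overlaps Hsf2bp on the other strand, by 1.22 ± 0.29, Nckap5 by 0.56 ± 0.13 and Taf5l, a subunit of a histone acetyltransferase complex, by 0.49 ± 0.12. Each of these 6 lay above vehicle in all treated libraries, which was a condition for naming them. Among the 211, U2surp, a splicing-associated protein, had 20.7 to 25.9 TPM against 47.7, 37.1 and 28.6 TPM, and Narf 6.43 to 14.3 TPM against 24.0, 22.1 and 19.4 TPM. Mcm7 was also in this set, as were Fam111a, Lrrc4 and Mtmr4, lower by 0.92, 0.67 and 0.64. Few of these calls held with 2 vehicle libraries: without vehicle library 1, 2 or 3, 3, 25 or 39 of the 251 were called, and without 1 treated library 25 to 208 were. With all of CPC, AEBDAC or MTOAC left out, 33, 5 or 0 of the 251 were called for the class. Those called without vehicle library 1 were Rrp1b, Apba2 and 4933407L21Rik, and under quantile normalization 71 were called. The fold changes without vehicle library 1 were 1.54 for Rrp1b and -0.87 for Apba2, an adaptor of synaptic vesicle release, while 0.88 for Cops8 and 1.19 for Sars no longer passed (adjusted p = 0.113 and 0.132).

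**Figure D4:**
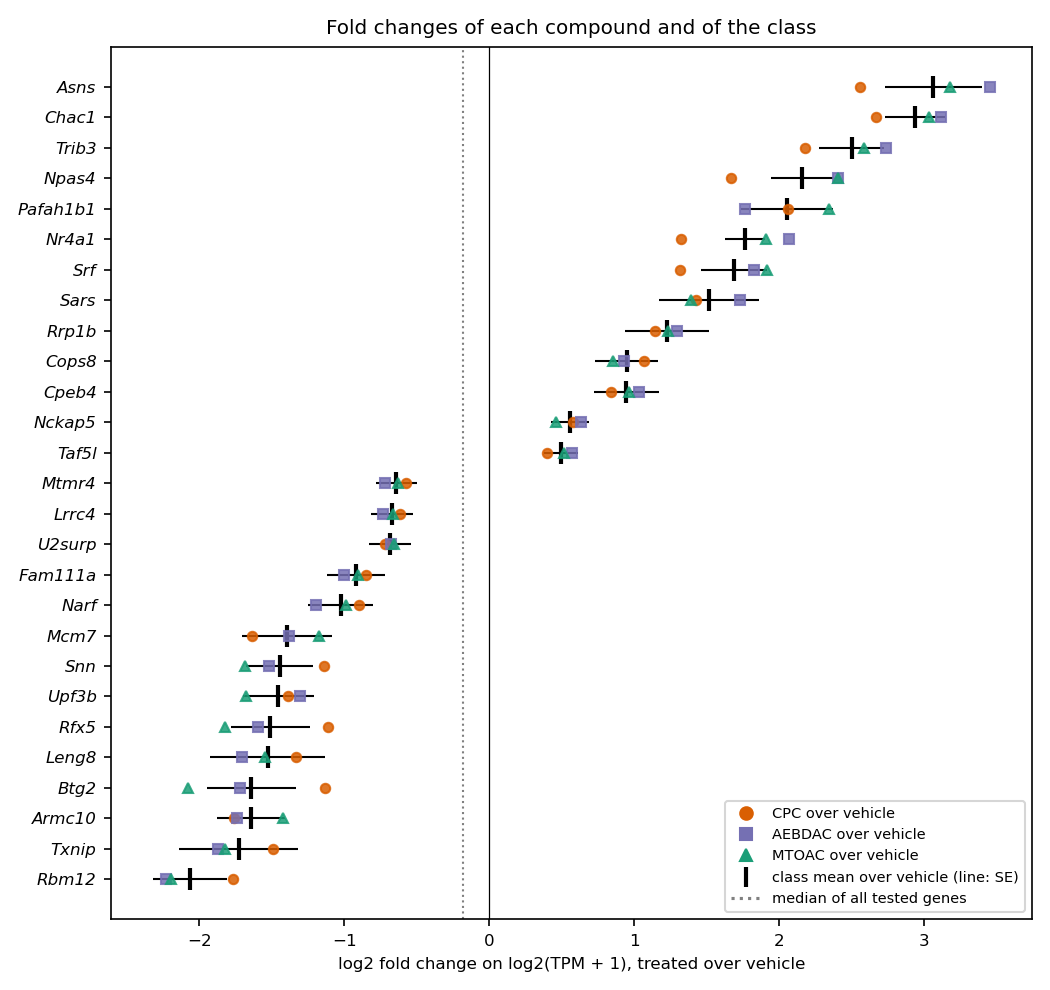
Log2 fold changes of named genes for CPC, AEBDAC and MTOAC over vehicle (symbols) and for the class (black tick, with a line of 1 SE to each side), with a dotted line at the median of all tested genes, -0.18. The genes were chosen for no overlap between treated and vehicle libraries, so the 3 symbols of each gene lie on the same side of 0 by selection. The genes run from Asns (class 3.06) to Rbm12 (class -2.07), and all 3 compounds were measured against the same vehicle libraries.

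Whether the compounds differed from one another was tested over 3 pairs, in contrasts that leave out the vehicle mean. The vehicle libraries still entered the shared estimate of the spread. No gene passed (0%) in the limma F test between the 3 compounds, 290 had an unadjusted p under 0.05, and the smallest adjusted p was 1. Without vehicle library 1, an unadjusted p under 0.05 in the F test was seen for 372 of 11847 genes. In the pairs 211 genes for AEBDAC over CPC, 449 for MTOAC over CPC and 307 for MTOAC over AEBDAC had an unadjusted p under 0.05, and none passed after adjustment over genes and pairs. The half-width of the 95% interval of a difference was 0.55 log2 for the median gene, so smaller differences were not resolved and the compounds are not shown to act alike. The smallest unadjusted p was that of Hspa1a, whose means were 5.78 ± 3.86 TPM with CPC, 14.5 ± 6.52 with AEBDAC and 33.3 ± 1.27 with MTOAC, against 2.77 ± 0.84 in vehicle (SD, n = 3). MTOAC, which carries octyl chains and no ring, exceeded CPC, a pyridinium with a hexadecyl chain, by 2.48 log2 in Hspa1a (95% interval 1.65 to 3.31; limma, unadjusted p = 3.7e-05, adjusted p = 1). For Gpr17 the means were 33.0, 23.5 and 13.6 TPM with CPC, AEBDAC and MTOAC, against 59.0 TPM in vehicle, and the difference of MTOAC from CPC was -1.19 (-1.86 to -0.52; limma, adjusted p = 1). The doses were set by effect and not by concentration, so such differences are not a comparison at equal dose.

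A smaller set held whichever library was left out. In all 12 fits that omit 1 library 120 genes were called, 29 higher and 91 lower, and 114 of them, 29 higher and 85 lower, were also called under quantile normalization. Of the 120, 18 were called for 1 compound, 95 for 2 and 7 for all 3. Of the genes described above, those that rose in this set are Chac1, Trib3, Asns, Atf4, Mthfd2, Slc7a5, Slc3a2, Slc1a4, Eif4ebp1, Herpud1, Nr4a1, Npas4, Fos, Srf, Pafah1b1, Jag1, Hspa1a, Cpne1 and Arl14ep. Those that fell include Sfpq, Rbm14, Tardbp, Srsf3, Srsf6, Ddx5, Hnrnpu, Olig1, Omg, Dll1, Ccne1, Ccnf, Aurka, Aurkb, Plk1, Chd4, Dnaja1, Elovl6, Hexim1, Rbm12, Armc10, Snn and Upf3b.

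The structure of the called genes is given as a description, with no test. It covers protein-coding genes, 131 of those that rose, 763 of those that fell and 11400 of those tested. The longest annotated transcript had a median of 3615 bp for genes that rose, 3358 bp for genes that fell and 3501 bp for all tested genes, with 8, 7 and 8 exons. The genomic span had a median of 25080 bp, 17149 bp and 25038 bp in the same order, and GC content 52.3%, 49.9% and 49.6%. Exons overlapped a protein-coding gene on the other strand for 15.3% of genes that rose, 22.9% of those that fell and 17.8% of all tested genes. The library kit is not described as marking strand, so reads from the shared stretches of such pairs may not be told apart.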

How the data were processed

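Per the labels' protocols, poly(A) libraries were read as pairs of 150 bp, to a stated minimum of 20 M reads. Per the submitters' processing notes, Salmon and the build mm10 were used; Salmon's version and annotation: not given in the sources used here. Each deposited table holds TPM for 35385 symbols, which total 772637 to 797758. TPM keep no depth, so no counting interval is given, and a rise of abundant transcripts lowers the rest.

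A gene entered the fit if 3 or more libraries reached 1 TPM, which 12009 did. They were fitted with limma 3.58.1 (trend and robust empirical Bayes) in R 4.3.3 on log2(TPM + 1), with 4 group means and no covariate; the class value is the mean of 3 compound means minus the vehicle mean. P-values are two-sided and adjusted by Benjamini and Hochberg over all tested genes, with calls under 0.05. The fit was checked on simulated data, with genes drawn independently and no shift of whole libraries. That check does not cover an outlying library such as vehicle library 1. Of the symbols 34858 matched GENCODE M21 (GRCm38), the source of gene coordinates and overlaps, and no 2 libraries held identical values.

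The members and the 34 gene lists were chosen with earlier results of these data known. Genes were named by rule. Among called genes with at least 5 TPM and no overlap, these were the 8 highest and 8 lowest class fold changes. Under the same conditions, the 6 per direction with the smallest p among genes called for no single compound were named. The 6 per direction with the largest smallest compound fold change met these conditions too. Further rules took 3 members per list by smallest p, 22 fixed genes, and the 4 called genes differing most between compounds. A further 26 genes, and those listed without values, were named after their values were seen, and some genes the rule names are left out. Alternatives changed the scaling, pseudocount, filter, model, block and libraries; 1, quantile normalization without vehicle library 1, was added after seeing the data.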

Additional observations from a re-analysis of the deposited data

How the results depend on the processing

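The count of 920 called genes (133 higher, 787 lower) became 598 (295, 303) under quantile normalization, 549 (296, 253) under median centring, 552 (80, 472) with no filter, and 1311 (239 higher) with array weights. It became 536 without the compound CPC (435 lower), 273 (39, 234) without AEBDAC, 77 (19, 58) without MTOAC and 213 (103 lower) with quantile normalization without vehicle library 1. Leaving out 1 library gave 168 to 1079 called, 45 to 146 higher and 123 to 943 lower. The count of 251 genes called for no single compound, taken anew in each fit, became 166 under median centring and 131 with array weights. It was 26 without AEBDAC and 37 without MTOAC, counted over the remaining compounds. It was 36 with quantile normalization without vehicle library 1 and 7 to 507 without 1 library. Of the 251 themselves, 56 were called for the class under median centring, 216 with array weights, 5 without AEBDAC and 0 without MTOAC. Calls between compounds were 1 with no filter and 0 to 1 without 1 library. The median gene was -0.18 as reported, 0.026 under median centring, -0.000877 under quantile normalization, with or without the block, and -0.012 with quantile normalization without vehicle library 1. A fit with 2 group means called 1221, and pseudocounts, a filter of 5 TPM, no trend and rescaling without mitochondrial genes kept the count within 1.5 times.

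The labels do not say what a replicate number marks. Deviations of same-numbered libraries correlated at 0.19, 0.395 and -0.00142, and pairing was taken to need all 3 over 0.1. With a replicate block 2110 genes were called (316 higher, 1794 lower), which include all 920, and with quantile normalization as well 1463 (760 higher); 313 of the blocked calls were in no single compound. Sox10, not called as reported, had an adjusted p of 0.0136 with the block.

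Of 153 named genes 114 were called, of which 43 were called in all fits without 1 library and 28 in all settings, 63 were lost without vehicle library 1, 83 were called under quantile normalization and 0 changed sign. Signs that held are no separate support, as the genes were called in these same libraries. Of 4263 alternative values 13 changed sign, all in genes not called. Mbp had 0.020 under quantile normalization, with or without the block, 0.29 with array weights, -0.64 to 0.24 without 1 library and 0.39 with quantile normalization without vehicle library 1. Under median centring Aldoc had 0.088, Fyn 0.054 and mt-Nd5 0.0082. Without 1 library Esrrb had -0.0076 to 0.33, mt-Atp8 -0.0015 to 0.99, mt-Nd3 -0.38 to 6.47 (-0.31 with quantile normalization without vehicle library 1) and Tagln -0.044 to 0.52. The causes were not tested.

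Precision is limited by 3 vehicle libraries: the median gene's fold change had a 95% interval of 0.45 log2 to each side.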

Other observations

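Genes grouped by the start of their symbol, a grouping chosen after the data were seen, are given as counts, beside 1.11% higher and 6.55% lower over all tested genes. Of 333 tested Zfp symbols, mostly zinc finger proteins, 33 were called lower and 3 higher, with a median 0.14 log2 below that of all tested genes. Of 29 kinesins (Kif) 8 were called lower and 0 higher, and several of these, such as Kif11, Kif20a and Kif23, are also in the mitosis list. Of 34 Rbm symbols 6 were lower and 0 higher, while their median was 0.13 log2 above that of all tested genes. The 75 Rpl and Rps ribosomal protein genes had 1 called higher, Rpl12, and none lower, with a median 0.26 above that of all tested genes, while the 79 genes of the mitochondrial ribosome had 1 higher and 5 lower. None of 47 Nduf subunits of complex I was called in limma. Among 188 solute carriers 7 were higher and 12 lower, the second share being near that of all tested genes.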
